A study of Mus musculus with 6 samples.

Results

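The Itgb8 integrin locus is a 500 kb stretch of mouse chromosome 12 around Itgb8, which reaches into the neighbouring genes Abcb5 and Macc1 and in which 56 of the 62236 CTBP2 sites of the deposited table lay. Its members were picked by position alone, as the sites of chromosome 12 whose centre lay between 118.9 and 119.4 Mb. The locus itself was selected on the difference between LPS and vehicle in these same libraries, so its values in that contrast are given as a description and carry no test. CTBP2 binding was measured by chromatin immunoprecipitation and sequencing in bone marrow-derived macrophages, primary phagocytes differentiated from marrow precursors in a dish. All 6 libraries came from male wildtype C57BL6/N mice aged 6 to 12 weeks, whose marrow cells were differentiated until day 6 in medium with L929 cell supernatant. In the vehicle group, 3 libraries came from cells given PBS, and in the LPS group 3 libraries came from cells given 100 ng/ml lipopolysaccharide, a component of the bacterial cell wall, for 3 h. Chromatin of both groups was fixed with 2 mM DSG followed by 1% formaldehyde and sheared to 500 to 1000 bp. The labels do not say whether the numbered replicates were separate mice or cultures, so a p-value here reflects the scatter of these libraries alone, and that scatter may be technical. Neither an input nor a control immunoprecipitation is part of these data as analysed here, and a binding assay without expression values gives no check of the labelled cell type by its markers.

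Itgb8 encodes the integrin beta 8 chain, which pairs with the alpha v chain (Itgav). The alpha v beta 8 integrin binds the latency-associated peptide that keeps TGF-beta inactive, and this binding makes TGF-beta available to its receptors, so that cells carrying the integrin help to set TGF-beta signalling in immune tissue. CTBP2 is a transcriptional co-repressor that is brought to chromatin by DNA-binding factors, where it recruits histone-modifying enzymes. LPS is sensed by Toll-like receptor 4 and sets off the inflammatory transcription programme of macrophages.

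One of the strongest CTBP2 sites of the locus lay just upstream of the Itgb8 start, centred at -0.635 kb. The RefSeq promoter is shown here for the gene's own start region, from 250 bases before to 50 bases after the gene start, at chr12:119238227-119238526 of GRCm38.p6 on the minus strand. Capitals mark a CCAAT box, the element bound by NF-Y, and a CACCTG E-box, the element bound by ZEB repressors, which are known partners of CTBP proteins. With the gene start as placed below, the CTBP2 site reaches only the upstream part of this sequence. That placement, made in 250 bp steps and then centred on nearby CTBP2 sites, is too coarse to settle whether the site covers the capitalised elements.
Itgb8 promoter: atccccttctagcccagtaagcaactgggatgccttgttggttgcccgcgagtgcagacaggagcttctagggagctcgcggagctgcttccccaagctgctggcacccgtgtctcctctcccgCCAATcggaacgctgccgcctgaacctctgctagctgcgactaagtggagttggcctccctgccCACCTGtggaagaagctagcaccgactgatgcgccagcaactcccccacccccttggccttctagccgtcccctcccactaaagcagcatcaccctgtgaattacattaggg
The promoter was 60.7% G or C, more than 72.2% of the 32851 RefSeq mouse promoters of the same length, whose median was 52.7%. It held 13 CpG dinucleotides against a median of 7. Searched on both strands, CCAAT occurred once in it and in 37.4% of all promoters, and CACCTG occurred once and in 20.2% of all promoters. The AP-1 motif TGANTCA (7.81% of all promoters), the PU.1 motif GAGGAAGT (3.2%), the NF-kB consensus (6.93%) and the GC box GGGCGG (35.7%) had no match in these letters. A match is a description of the sequence and was not tested for binding.

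Signal is given throughout as relative signal, the deposited normalised value of a site divided by the median of all sites in the same library, so that 1 is the median site of that library. If the smallest step of each deposited column is read as 1 read, the libraries held 3243258 to 4553177 reads in sites. The median site of a library held 39 to 55 of them. On the same reading the sites of the locus held 4 to 124 reads each in vehicle libraries and 11 to 224 in LPS libraries, so the weakest vehicle values rest on few reads. PCR duplicates and molecules cannot be told apart in these values. Site coordinates are printed as deposited and read as GRCm39. The gene table at hand is GRCm38.p6, and gene starts were therefore placed by an offset measured within the data. In the 7.19 Mb around the locus the offset was -36.31 kb, at which 19 of 38 gene starts had a site centre within 0.5 kb, against 6 without the offset and 1 with the offset reversed. The same starts were used to find the offset, so this excess is partly built in. A check on held-out starts of the whole table is given with the processing. Distances below are from the Itgb8 start so placed, positive into the gene and past its 3′ end, negative upstream. Itgb8 spans 75.5 kb on the minus strand.

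In the single site list that serves both groups, the locus was crowded with CTBP2 sites. Whether it was as crowded in either group alone was not tested. The median gap between neighbouring sites was 5.17 kb, against 8.48 kb over the table. Of the 3521 stretches of 500 kb with any site, cut on a fixed grid, 98.6% held fewer than 56 sites. The widest gap in the locus, 35.0 kb, lay upstream between the sites at -91.9 and -126.9 kb. By position, 27 sites lay between the end of Abcb5 and the 3′ end of Itgb8, 8 lay within Itgb8, 16 lay between the Itgb8 start and Macc1, and 5 lay within Macc1. Abcb5 encodes an ABC transporter and Macc1 a regulator linked to expression of the receptor Met. The nearest placed gene start was that of Itgb8 for 32 sites, of Abcb5 for 14 and of Macc1 for 10, whereas the deposited table names Itgb8 for all 56.

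In vehicle libraries most of these sites were weak. Mean relative signal was below 1 at 47 of 56 sites, its median over the sites was 0.469, and the median site of the locus stood at the 7.61th percentile of all sites. In LPS libraries the median over the same sites was 0.943 and the median percentile was 47.0, with 26 sites above 1. Mean values ranged from 0.269 to 2.14 across sites in vehicle libraries and from 0.505 to 4.36 in LPS libraries.

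Summed over the 56 sites, relative signal in replicates 1, 2 and 3 came to 36.5, 36.9 and 35.4 with vehicle and to 67.1, 66.3 and 78.7 with LPS. The groups did not overlap, and LPS replicate 3 stood above the other 2 LPS libraries. Group means were 36.3 ± 0.769 for vehicle and 70.7 ± 6.93 for LPS (SD, n = 3 each), a ratio of 1.95, with no test because the locus was selected on this difference.

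**Figure D1:**
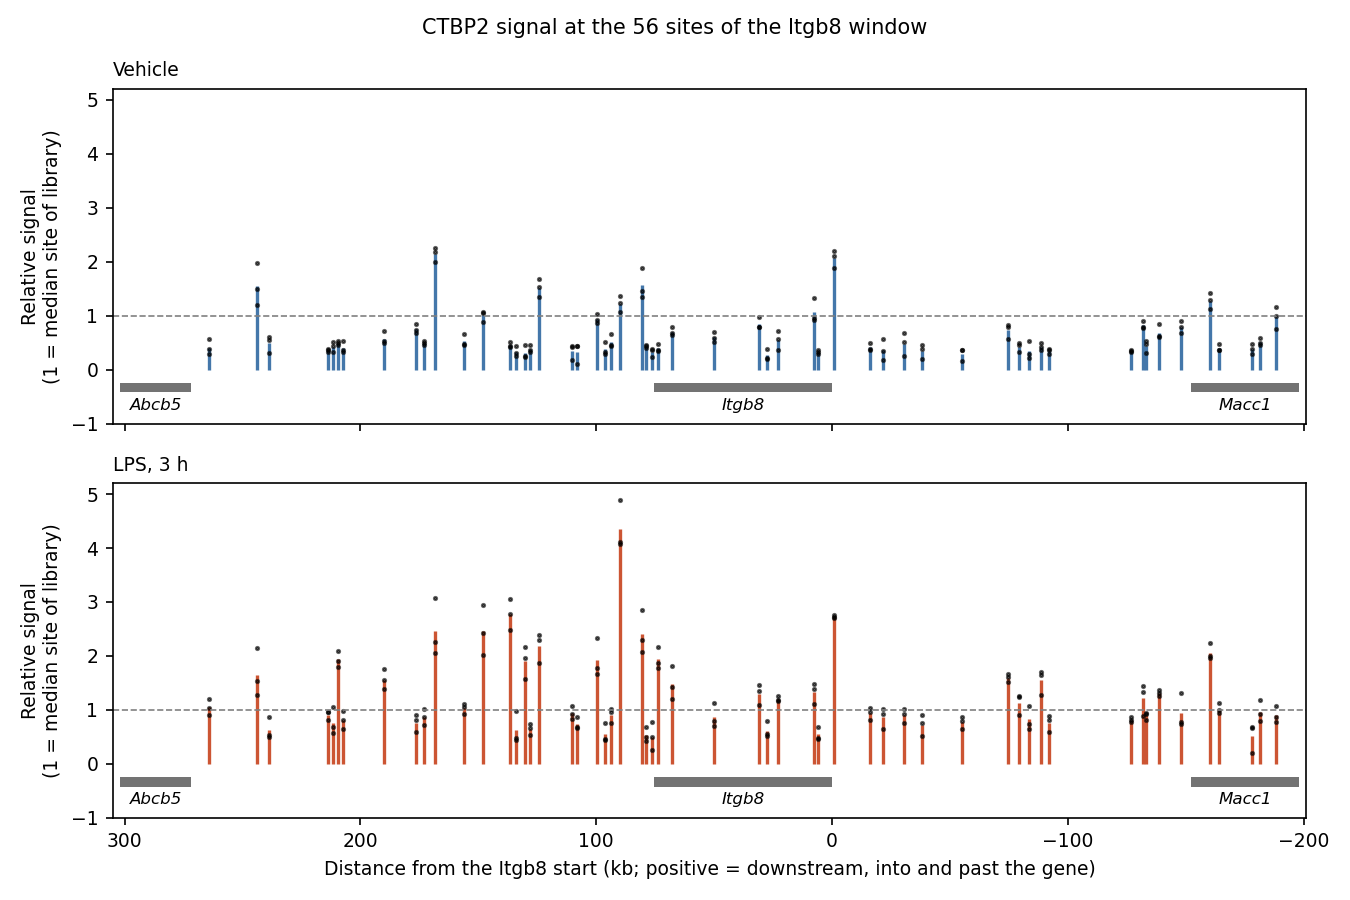
CTBP2 relative signal (vertical axis, 1 = the median site of a library, dashed line) against distance from the Itgb8 start in kb (horizontal axis, reading towards upstream on the right) in vehicle (top) and LPS (bottom) libraries. Bars are means of 3 libraries, dots are single libraries and grey boxes are genes. In all, 47 of 56 vehicle bars lie below 1, and 26 LPS bars lie above it.

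Sites were compared between the groups with limma over all 62236 sites, with Benjamini-Hochberg adjustment and a call at an adjusted p under 0.05. Of the 56 sites, 41 were called higher in LPS, which is 73.2%, where 16.1% of all sites were called higher. None was called lower, where 13.5% of all sites were. None had an unadjusted limma p under 0.05 in that direction, where 11862 of all 62236 sites had. The other 15 sites were not called, 14 with a fitted log2 fold above 0 and 1 below. At 43 of the 56 sites the lowest LPS library exceeded the highest vehicle library, where 21.6% of all sites had that order. These counts come from the contrast that chose the locus, and nothing is read from their distance to the background. With the deposited values in place of the relative signal, limma called 6 of the 56 sites higher and 1178 of all sites, with 30 lower. The authors' deposited table called 16 of the 56 sites higher at its FDR under 0.05 and none lower, where 4.01% of all sites were called higher; all 16 were among the 41.

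The fitted log2 fold, on the scale of log2(relative signal + 0.02), had a median of 0.96 over the 56 sites, with quartiles of 0.53 and 1.31 and a range from -0.08 to 2.57. Over all sites the median was -0.02, and over the other 2446 sites of chromosome 12 it was -0.04. The log2 fold exceeded 1 at 27 sites and 2 at 3 sites. In the authors' deposited table the median log2 fold of the 56 sites was 0.58, with a range from -0.01 to 2.21. That fold comes from the authors' own processing, so its size is not directly comparable with that of the fitted fold. The locus therefore held sites that differed several-fold beside sites that hardly moved, and the individual sites are described next by their place relative to Itgb8.

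**Figure D2:**
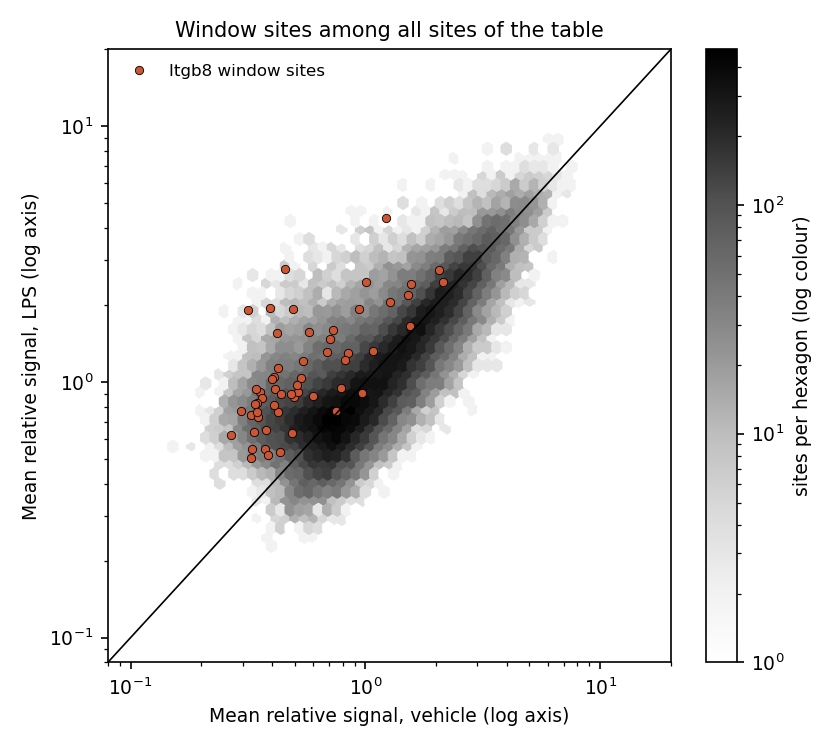
Mean relative signal in LPS (vertical, log axis) against vehicle (horizontal, log axis) for all sites (grey hexagons, shaded by number of sites on a log colour scale) and the 56 Itgb8 locus sites (red points), with the line of equality. The locus points gather at low vehicle signal, with a median of 0.469, and the only fitted log2 fold below 0 among them is -0.08; the point highest on the vertical axis is the site at +90.0 kb, at 4.36.

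Downstream of the gene lay the pair of sites with the largest folds. The site at +130.3 kb (chr12:119071141-119072141) had relative signals of 0.464, 0.255 and 0.231 in vehicle and 1.95, 1.58 and 2.17 in LPS. It was among the weakest of all sites in vehicle, at the 1.05th percentile, and its log2 fold of 2.57 (SE 0.23) was the 69th highest in the table. The site at +136.7 kb (chr12:119064806-119065806) had 0.415, 0.436 and 0.513 in vehicle and 2.49, 2.78 and 3.06 in LPS. Its LPS values stood at 6.11 times its vehicle values, with a log2 fold of 2.56 (SE 0.18), the 72nd highest of all sites. At both sites every LPS library was above 1 and every vehicle library below 0.52 in relative signal.

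Between and beside that pair, other sites moved far less. The site at +134.0 kb had 0.439, 0.309 and 0.256 in vehicle and 0.489, 0.436 and 0.981 in LPS, where LPS replicate 3 alone was well above the vehicle values, and its log2 fold of 0.83 was not called. The site at +128.0 kb had 0.317, 0.455 and 0.359 in vehicle and 0.535, 0.673 and 0.731 in LPS, with a log2 fold of 0.75 that was also not called although the groups did not overlap. The largest folds of the locus thus stood beside smaller ones. Those 0.83 and 0.75 folds still stood at the 90.8th and 89.4th percentiles of all sites, with SEs of 0.35 and 0.29.

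The site at +90.0 kb (chr12:119111441-119112441) had the highest LPS signal of the locus. It had 1.07, 1.24 and 1.36 in vehicle and 4.88, 4.07 and 4.12 in LPS, which took it from the 61.3th to the 98.6th percentile of all sites, with a log2 fold of 1.82 (SE 0.15). Unlike most sites of the locus it was already above 1 in every vehicle library. Farther downstream, the site at +209.7 kb (chr12:118991813-118992813) had 0.464, 0.527 and 0.487 in vehicle and 1.91, 1.80 and 2.10 in LPS, with a log2 fold of 1.93 (SE 0.18). It stood in a cluster of 4 sites between +207.5 and +213.9 kb, all called higher, whose other log2 folds were 0.97, 0.79 and 1.31.

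Not all of the downstream stretch followed. The site at +168.2 kb (chr12:119033280-119034280) had the highest vehicle signal of the locus, 2.00, 2.25 and 2.18, and 2.05, 2.25 and 3.08 in LPS. Its groups overlapped, LPS replicate 3 alone was above the vehicle range by a margin, and the log2 fold of 0.18 (SE 0.16) was not called. The site at +243.8 kb (chr12:118957679-118958679) had 1.20, 1.49 and 1.97 in vehicle and 1.28, 1.53 and 2.15 in LPS, with a log2 fold of 0.09 (SE 0.19). The site at +176.4 kb (chr12:119025098-119026098) had 0.683, 0.727 and 0.846 in vehicle and 0.814, 0.582 and 0.904 in LPS, with a log2 fold of 0.01 (SE 0.21). The groups overlapped at both, and neither was called.

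The site at +80.8 kb (chr12:119120680-119121680), just past the 3′ end as placed, had 1.34, 1.89 and 1.46 in vehicle and 2.30, 2.07 and 2.85 in LPS. It was called higher, with a log2 fold of 0.62 (SE 0.16), and lost the call on the deposited values, where the log2 fold was 0.68. Over the whole stretch between Abcb5 and Itgb8, 18 of 27 sites were called higher, the median log2 fold was 0.83, and the summed relative signal was 2.03 times as high in LPS (18.7 ± 0.514 against 37.9 ± 4.24, SD, n = 3 each).

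Within Itgb8, 5 of 8 sites were called higher and the median log2 fold was 0.85. The largest change was at +73.9 kb (chr12:119127538-119128538), by the 3′ end of the gene, where vehicle values were 0.342, 0.473 and 0.359 and LPS values were 1.86, 1.78 and 2.17. Its log2 fold of 2.26 (SE 0.20) was the 165th highest of all sites, and every LPS value was above 1 while every vehicle value was below 0.5. The next site, at +68.0 kb, had 0.683, 0.636 and 0.795 in vehicle and 1.21, 1.42 and 1.81 in LPS, with a log2 fold of 1.03.

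Closer to the start of the gene, some sites were called and others were not. The sites at +22.8, +27.4 and +30.8 kb were called higher with log2 folds of 1.17, 1.17 and 0.61. The sites at +6.0, +7.4 and +50.3 kb were not called, at 0.67, 0.31 and 0.52. The summed relative signal of the gene in replicates 1, 2 and 3 was 4.39, 4.93 and 4.95 with vehicle and 8.65, 8.69 and 10.5 with LPS, a ratio of 1.95 with no overlap of the groups.

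The site nearest the Itgb8 start was strong in both groups. Centred 0.635 kb upstream of the start (chr12:119202100-119203100), it does not cover the start as placed. It had 2.20, 1.89 and 2.10 in vehicle and 2.77, 2.73 and 2.71 in LPS. Every LPS library was above every vehicle library, and the LPS values lay close together (2.06 ± 0.156 against 2.74 ± 0.029, SD, n = 3 each). It was called higher with a log2 fold of 0.41 (SE 0.14), a change of 1.33 times, the smallest of the 41 called log2 folds. The call was lost on the deposited values (0.47), without limma's trend and robust options (0.41), without LPS replicate 1 (0.40), 2 (0.41) or 3 (0.41), and without vehicle replicate 2 (0.35). In the authors' deposited table, whose folds are a different measure, its log2 fold was 0.08 and it was not called.

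**Figure D3:**
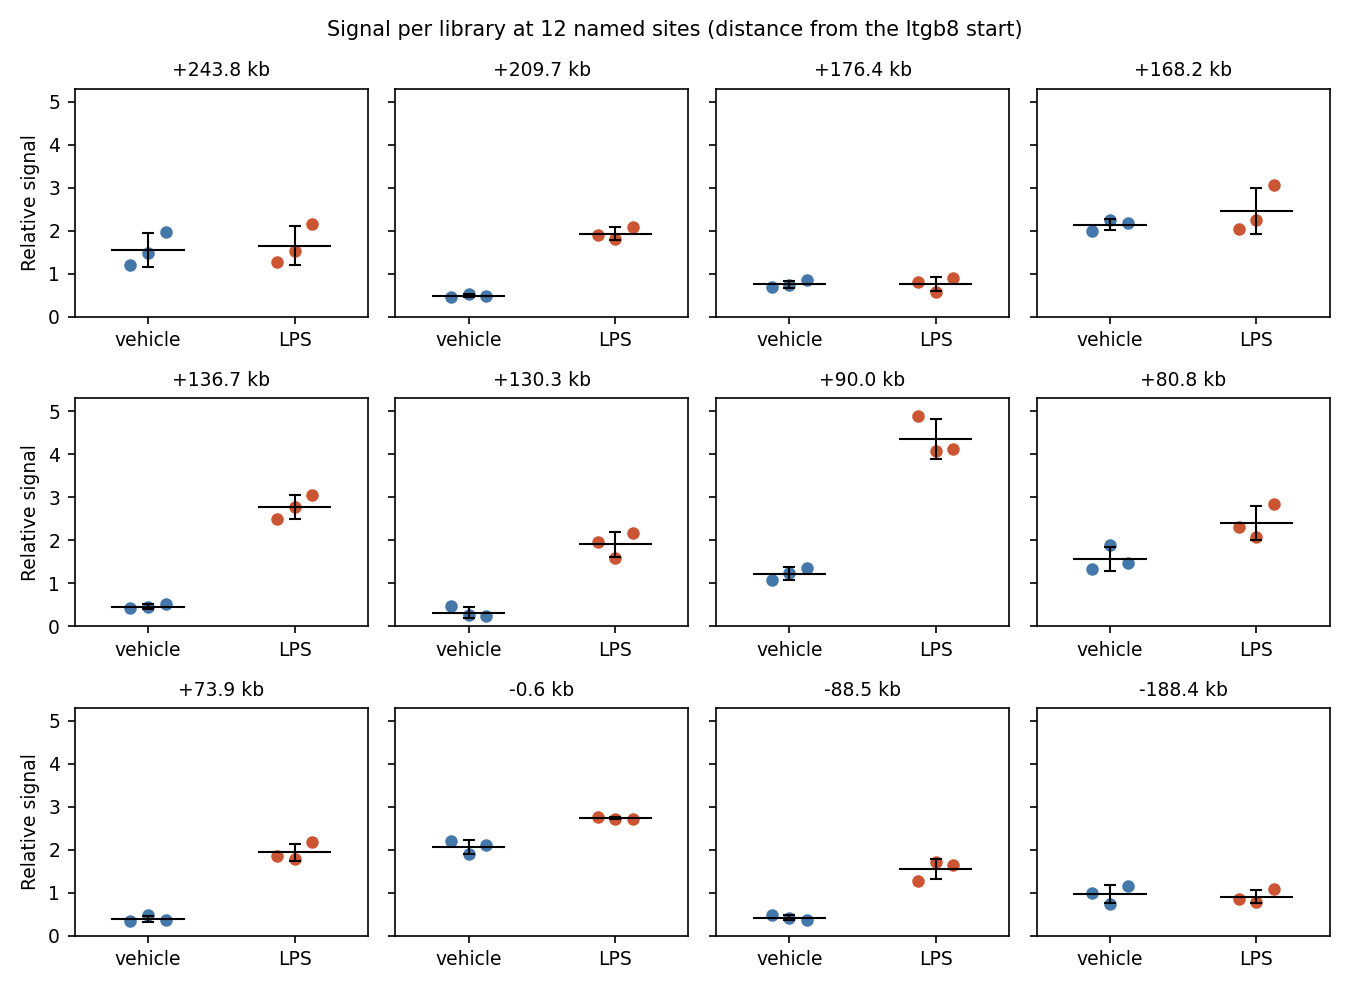
Relative signal per library (vertical axis, 1 = the median site of a library) at 12 sites of the Itgb8 locus in vehicle (blue) and LPS (red), each panel titled with the distance from the Itgb8 start. Points are libraries, lines are means and bars are SD (n = 3 per group); the site at +90.0 kb is highest in LPS, and the groups overlap at +243.8, +176.4, +168.2 and -188.4 kb.

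Upstream of Itgb8 nearly every site was called higher in limma. Of the 16 sites between the Itgb8 start and Macc1, 15 were called higher, where 16.1% of all sites were. The authors' deposited table called only 4 of these 16 higher. It called 9 of the 27 between Abcb5 and Itgb8, 2 of the 8 within Itgb8 and 1 of the 5 within Macc1. The median fitted log2 fold of the 16 sites was 1.11, and all but the one nearest the start had a mean vehicle signal below 1. The largest change there was at -88.5 kb (chr12:119289961-119290961), with 0.488, 0.418 and 0.359 in vehicle and 1.28, 1.71 and 1.65 in LPS, and a log2 fold of 1.83 (SE 0.20). It was the last but one of 5 sites between -74.8 and -91.9 kb, all called higher, whose other log2 folds were 1.14, 1.39, 1.27 and 1.09. The exception upstream was the site at -148.1 kb, with 0.903, 0.673 and 0.795 in vehicle and 0.744, 0.782 and 1.31 in LPS, a log2 fold of 0.21 and overlapping groups. The site at -131.7 kb was called higher at 0.54 although its groups overlapped, with 0.891 in LPS replicate 2 and 0.903 in vehicle replicate 1. Over this stretch the summed relative signal was 1.93 times as high in LPS (9.30 ± 0.993 against 18.0 ± 1.52, SD, n = 3 each).

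Within Macc1, 3 of 5 sites were called higher, with a median log2 fold of 0.69, and the summed relative signal was 1.55 times as high in LPS. The site at -164.2 kb had the largest change of these, with 0.366, 0.473 and 0.359 in vehicle and 1.00, 1.13 and 0.942 in LPS, and a log2 fold of 1.32. The site at -188.4 kb (chr12:119389873-119390873) had 1.00, 0.745 and 1.15 in vehicle and 0.861, 0.782 and 1.08 in LPS. Its log2 fold of -0.08 (SE 0.20) was the only one below 0 in the locus, was not called, and was that of the last site inside the upper edge.

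The edges of the locus were set by position and did not mark where the higher signal stopped. Just inside the lower edge the site at +264.4 kb (chr12:118937092-118938092) had 0.561, 0.382 and 0.282 in vehicle and 1.21, 1.04 and 0.904 in LPS, a log2 fold of 1.36. Just outside it the site at +307.6 kb (chr12:118893900-118894900) had 0.951, 0.727 and 0.436 in vehicle and 1.30, 1.71 and 1.62 in LPS, a log2 fold of 1.17. Just outside the upper edge, the site at -202.8 kb (chr12:119404291-119405291) had 0.512, 0.600 and 0.462 in vehicle and 1.37, 1.69 and 1.94 in LPS, a log2 fold of 1.63. The sites outside were thus as much higher in LPS as many inside.

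Beyond the upper edge the directions were mixed. Within 250 kb outside that edge lay 6 sites, of which 2 were called higher and 3 lower. The site at -245.9 kb (chr12:119447354-119448354) was stronger than any site of the locus in vehicle, with 4.37, 3.91 and 3.82, and had 2.12, 2.20 and 2.25 in LPS. Its groups did not overlap, and its log2 fold was -0.87 (SE 0.14). The sites at -284.1 and -375.4 kb were called lower as well, with log2 folds of -0.76 and -0.92. Outside the lower edge, 250 kb held 1 site only, the one at +307.6 kb.

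**Figure D4:**
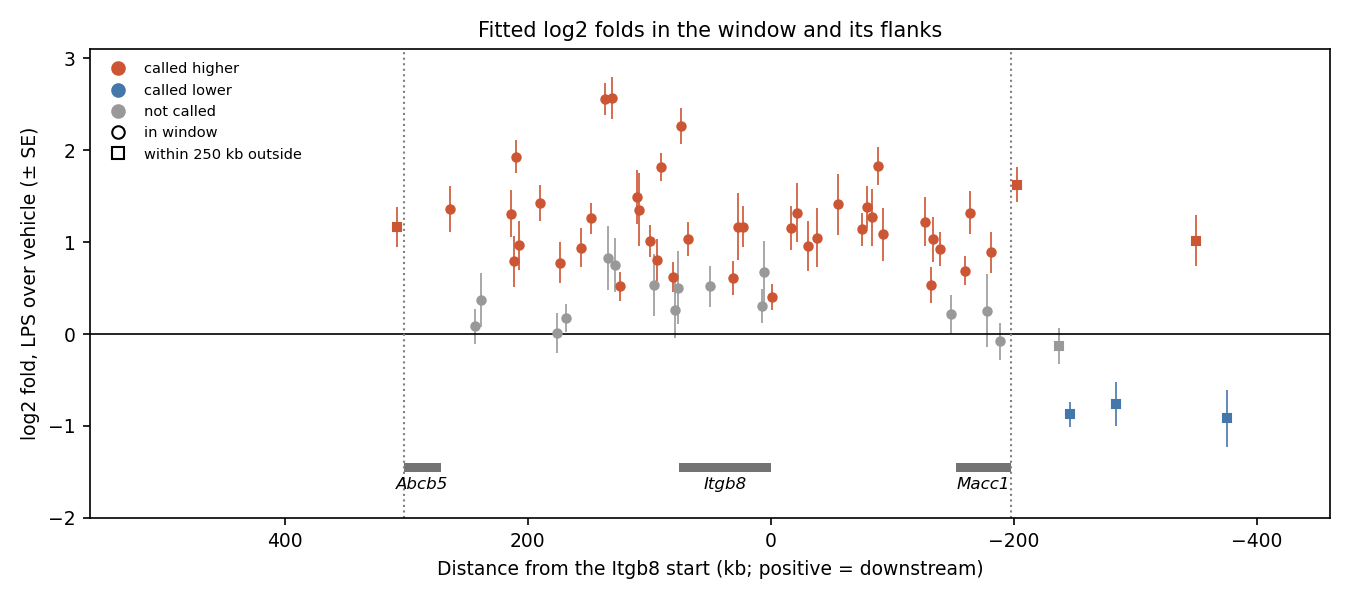
Fitted log2 fold of LPS over vehicle (vertical axis, bars are SE) against distance from the Itgb8 start in kb (horizontal axis) for the 56 sites of the locus (circles) and the 7 sites within 250 kb outside it (squares), coloured by call; dotted lines mark the edges. Of the circles, 41 are called higher and none lower, and the 3 sites called lower all lie outside the upper edge.

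Among the sites of the locus, the fold was larger where vehicle signal was lower. Across the 56 sites the log2 fold correlated with the log2 mean vehicle signal at Pearson's r = -0.44 and Spearman's rho = -0.45, and over the whole table the values were -0.40 and -0.37. Both measures share the vehicle values and the libraries, and sites are not replicates. The 9 sites with a mean vehicle signal of 1 or more had a median log2 fold of 0.52, with 6 called higher, and the 47 weaker ones had a median of 1.03, with 35 called higher. Over all sites, 9.41% of those with a vehicle signal of 1 or more and 22.7% of the weaker ones were called higher. Distance from the Itgb8 start, on either side, correlated with the fold at r = -0.07 and rho = -0.09 across the 56 sites. The median coefficient of variation between libraries was 18.8% in vehicle and 16.1% in LPS for sites of the locus, against 14.8% and 13.7% over the table.

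The sites elsewhere most like the one at +130.3 kb were found by Euclidean distance over the log2 relative signals of all 6 libraries. The nearest, at a distance of 0.455, lay at -14.7 kb from the start of Cblif as placed (chr19:10734796-10735796). It had 0.464, 0.200 and 0.205 in vehicle and 1.77, 1.44 and 1.88 in LPS. The next lay 51.2 kb past the start of Slc1a2 (chr2:102587505-102588505; distance 0.601), and the one after it 64.2 kb past the start of Btla (chr16:45108368-45109368; distance 0.630). Their log2 folds were 2.56, 2.68 and 2.24. Cblif encodes gastric intrinsic factor, Slc1a2 a glutamate transporter and Btla an inhibitory receptor of lymphocytes. The placement of these starts was not checked gene by gene, so each site may lie far from the gene named.

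The other genes of latent TGF-beta activation and signalling were taken from a list of 31 genes, of which 21 could be placed and had a site whose nearest placed gene start was theirs. The 10 others were not analysed here. Starts that were not placed were passed over, so a site far from its named gene may lie nearer to another gene. At least 1 site was called higher at 13 of the 21 genes (61.9%), where 34.1% of the 12542 genes with a site had one, and at least 1 site was called lower at 11 (52.4%), where 31.6% of genes had one. The listed genes had a median of 8 sites each against 3 over all genes. Counted by site, 34 of their 206 sites were called higher (16.5%) and 36 lower (17.5%), where 16.1% and 13.5% of all sites were called, and the median log2 fold was -0.06. Called sites of both directions were held by 8 of the genes, and 5 held none.

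Itgav, whose product is the alpha v partner of beta 8, had the largest change of the list. At 35.8 kb past its start (chr2:83590099-83591099) relative signal was 0.342, 0.309 and 0.410 in vehicle and 1.93, 1.67 and 2.48 in LPS, which gave a log2 fold of 2.44 ± 0.20 (SE) and an adjusted p of 3.82e-11 in limma. Of the 17 Itgav sites, 5 were called higher and 2 lower. At -9.86 kb from the start of Smad6, which encodes an inhibitory SMAD, the values were 0.488, 0.491 and 0.462 in vehicle and 2.35, 2.38 and 2.71 in LPS, a log2 fold of 2.32 (limma adjusted p = 5.17e-12). At -11.8 kb from the start of Furin, the protease that cleaves the TGF-beta precursor, they were 0.561, 0.727 and 0.641 in vehicle and 2.00, 1.93 and 2.21 in LPS, a log2 fold of 1.65 (limma adjusted p = 7.89e-09). At these 3 sites the groups were far apart, with every LPS library above 1.6 and every vehicle library below 0.8.

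The largest change at Itgb1, which encodes the beta 1 chain, was at a site -113 kb from its start, with a log2 fold of 1.37 (limma adjusted p = 0.000149). At that distance a gene start that was not placed may lie nearer. Other members leaned the other way by count. Tgfbr1 and Tgfbr2, which encode the TGF-beta receptor chains, had 6 of 18 and 6 of 26 sites called lower and 1 and 2 called higher. Tgif1, a co-repressor of SMAD-dependent transcription, had 9 of 23 called lower and 1 higher, and Ski, another SMAD co-repressor, had 4 of 11 called lower and none higher. Mmp14, a membrane-bound protease, had both of its sites called higher. Tgfb1, which encodes the main TGF-beta of immune cells, had 2 sites and Itgb6, the other beta chain best known for activating latent TGF-beta, had 2, none of them called.

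Of 10 other integrin genes of leukocytes and their relatives, 6 could be placed, and Itga6, Itgal, Itgb2 and Itgb4 were not analysed here. At least 1 site was called higher at 5 of the 6 and at least 1 lower at the same number, where 34.1% and 31.6% of all genes with a site had one, but these genes had a median of 10 sites each against 3 over all genes. Of their 84 sites, 20 were called higher (23.8%, against 16.1% of all sites) and 11 lower (13.1%, against 13.5%), and the median log2 fold was 0.18, against -0.02 over all sites. Itga4 alone held 41 of the 84 sites, with 12 of the 20 called higher and 4 of the 11 called lower. The largest change was at a site -274 kb from the start of Itga4, the alpha 4 chain (chr2:78810967-78811967), with 0.659, 0.491 and 0.590 in vehicle and 3.26, 3.53 and 3.02 in LPS, a log2 fold of 2.46 (limma adjusted p = 7.38e-13). Itga4 was only the nearest placed start to this site, and a start that was not placed may lie nearer. A site at -41.9 kb from the start of Itga9, the alpha 9 chain, had a log2 fold of 1.18 (limma adjusted p = 2.95e-06). At Itgax, the CD11c chain, 3 of 11 sites were called higher and 1 lower, with a median log2 fold of 0.32; its largest called change was the lower one, -0.73 at -14.0 kb from the start (limma adjusted p = 0.002). At Itga5, the alpha 5 chain, 1 of 9 sites was called higher and 1 lower, the latter at 5.30 kb past the start with a log2 fold of -0.71 (limma adjusted p = 0.00106).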

How the data were processed

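The deposited table holds, per site, a normalised signal for each of the 6 libraries, with the authors' log2 fold, p-value and FDR. Tools named per the submitters' processing notes include DiffBind 3.16 in R 4.4.1, MACS3 3.0.0a5 and BWA 0.7.17, along with SAMtools 1.9 and Picard 3.2.0; builds named there are mm39, GRCm39 and mm10, with no role for any. For the authors' normalisation of the signal, and for whether peaks were called per library, nothing is stated in the sources used here. The deposited signal had library medians of 35.5, 37.3 and 73.0 in vehicle and 37.1, 48.8 and 61.0 in LPS, so each column was divided by its median. A test on log2(relative signal + 0.02) used limma 3.58.1 in R 4.3.3 (trend, robust, no covariates, Benjamini-Hochberg over all 62236 sites), checked on simulated data. The pseudocount understates folds at weak sites. Gene starts were placed by scoring shifts up to 1 Mb in 250 bp steps for site centres within 0.5 kb. Of 10517 starts held out of the fit, 42.6% had such a site, against 5.49% unshifted and 5.08% with the shift reversed. For the distances given, each stretch of equal shift was also centred by the median distance of its starts from nearby site centres. The locus, lists and tests were chosen with earlier results of these data known. Named sites were those with the 6 largest and 3 smallest folds, the 3 highest vehicle signals, the site nearest the Itgb8 start and those at the edges, and per list up to 4 genes with the largest called change. Other sites are named by place, after their values were seen. Alternatives were other scalings, pseudocounts, a signal filter, the replicate block, simpler limma options, a stricter threshold, other windows and leaving out each library.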

Additional observations from a re-analysis of the deposited data

How the results depend on the processing

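Counts of calls differed most on the deposited values, with a pseudocount of 1. There limma called 1178 of all sites higher and 30 lower, against 10033 and 8406 on the relative signal, and 6 of the 56 sites of the locus higher against 41, while the median log2 fold of the locus was 1.03 and the ratio of summed signal 2.00. At an adjusted p under 0.01, 4699 of all sites were called lower and 33 sites of the locus higher. Over the 11 sites in the Itgb8 gene span of the selection rule (119.12 to 119.2 Mb) the median log2 fold was 0.62, against 0.96 for the locus. These 11 are the 8 sites within the gene as placed and the sites at +76.4, +79.1 and +80.8 kb, past its placed 3′ end. Quantile normalisation left 40 sites of the locus called higher. No site of the locus was called lower under any of these alternatives. Leaving out 1 library at a time gave 34 to 40 sites of the locus called higher, a median log2 fold of 0.83 to 1.01, and a ratio of summed signal of 1.84 to 2.01, with 7690 to 10082 of all sites called higher and 6030 to 7912 lower; 29 of the 41 sites were called in all 6 such fits. With the replicate block, 44 sites of the locus were called higher, with 11691 and 10397 of all sites called higher and lower. Deviations from the group means correlated at 0.111, 0.0384 and 0.214 between libraries of the same number. Between libraries of different numbers only vehicle replicate 2 and LPS replicate 1 had a positive value (0.148), and the others ran from -0.011 to -0.205. The numbers were not taken as a pairing in the main fit, and whether they are one was not tested. Sites with folds near 0 changed sign. The site at +243.8 kb had -0.12 without LPS replicate 3 and -0.09 without vehicle replicate 1, and up to 0.27 without vehicle replicate 3. The site at +176.4 kb had -0.041 under quantile normalisation, -0.045 without LPS replicate 1, -0.12 without LPS replicate 3, -0.056 without vehicle replicate 1 and -0.012 without vehicle replicate 2, and up to 0.19 without LPS replicate 2. The site at -188.4 kb had 0.017 without LPS replicate 2 and 0.056 without vehicle replicate 3, and down to -0.25 without vehicle replicate 2. The causes were not tested. Depth limits the weakest sites, with as few as 4 reads in a vehicle library if 1 step is 1 read.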
